A study of Zea mays with 16 samples.

Results

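The 69 maize genes described here were expressed in leaves at 26 °C and stood several times higher after chilling at 4 °C. They were chosen from the counts of B73 and M37W alone. A gene had to reach at least 5 CPM (the count divided by the library's total count, times 1000000) in all 4 control libraries of these lines. In each of the 2 lines its lowest chilled CPM also had to be at least 3 times its highest control CPM. Of 44146 nuclear gene IDs, 10673 met the control minimum, called the expressed IDs below, and 69 of them met the whole rule. The libraries of B104 and CML333 did not enter the choice, and tests of the chilling response were made only there.

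The series profiled leaf RNA of 4 maize lines at 26 °C (control) or 4 °C (chilled), with a 14 h day, a 10 h night and light of 250 µmol per square metre and second. All 4 are inbreds: B73 gave the maize reference genome, B104 is favoured for genetic transformation, and CML333 and M37W are, with B73, parents of the nested association mapping population. No group carries a transgene or mutation by its labels, and the labels name no treatment other than cold. Each line had 2 control and 2 chilled libraries, 16 in all, read from the 3′ ends of polyadenylated RNA, so that CPM does not grow with transcript length. The sources used here do not give the duration of chilling, the plants' age or whether replicates were separate plants, so that p-values measure only the spread between these libraries, which may be technical.

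Maize comes from the tropics and is injured by cold that plants of temperate regions tolerate. In plants, cold is sensed within a short time through membrane and calcium signals, and transcription factors of the CBF/DREB family, best studied in Arabidopsis, switch on protective genes. Products of cold-induced genes include dehydrins, enzymes of raffinose and trehalose synthesis, scavengers of reactive oxygen and proteins that keep RNA in a translatable form. The nuclear IDs come without gene names, and 0 of the 44146 IDs, hence 0 of the 69, matched the RefSeq gene table of assembly Zm-B73-REFERENCE-NAM-5.0. None of the 69 can therefore be assigned to these groups, the leaf markers could not be looked up, and at most 4 IDs are printed.

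Library totals ran from 1780344 to 2705564 counts, so that 5 CPM stood for 8.90 to 13.5 counts. Replicates of a group correlated across all IDs at r = 0.922 to 0.985 on log2(CPM + 1). The lowest value was that of the chilled CML333 pair. Over the expressed IDs other than the 69 genes, the library labelled CML333 chilled replicate 2 correlated at 0.818 and 0.822 with the CML333 controls and at 0.771 with its own replicate. Replicate 1 correlated at 0.626 and 0.605 with these controls and at 0.807 to 0.830 with the chilled libraries of the other 3 lines. Over the same IDs both B104 controls correlated with libraries of every other group at 0.322 to 0.485, and with each other at 0.874. ENSRNA IDs (noncoding RNA) took 5.04% and 3.69% of their counts, against at most 0.101% elsewhere. Whether the labels of these 3 libraries are right was not tested, and directions drawn from them rest on the labels. Results that rest on them are given with these libraries named.

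In B73 and M37W the 69 genes moved from a small to a sizeable part of the leaf's messages. They took 0.702% and 0.691% of counts in the B73 controls and 4.95% and 5.35% in the chilled B73 libraries. In M37W they took 0.794% and 0.655% in the controls and 4.68% and 4.55% in the chilled libraries. The chilled share was on average 7.39 times the control share in B73 and 6.37 times in M37W, as the rule requires of the genes' direction. The 95% Wilson intervals of these shares reach at most 0.0330 percentage points to either side in any library and cover counting error only. In leaf tissue, more cells that use a gene and more RNA per cell cannot be told apart.

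**Figure D1:**
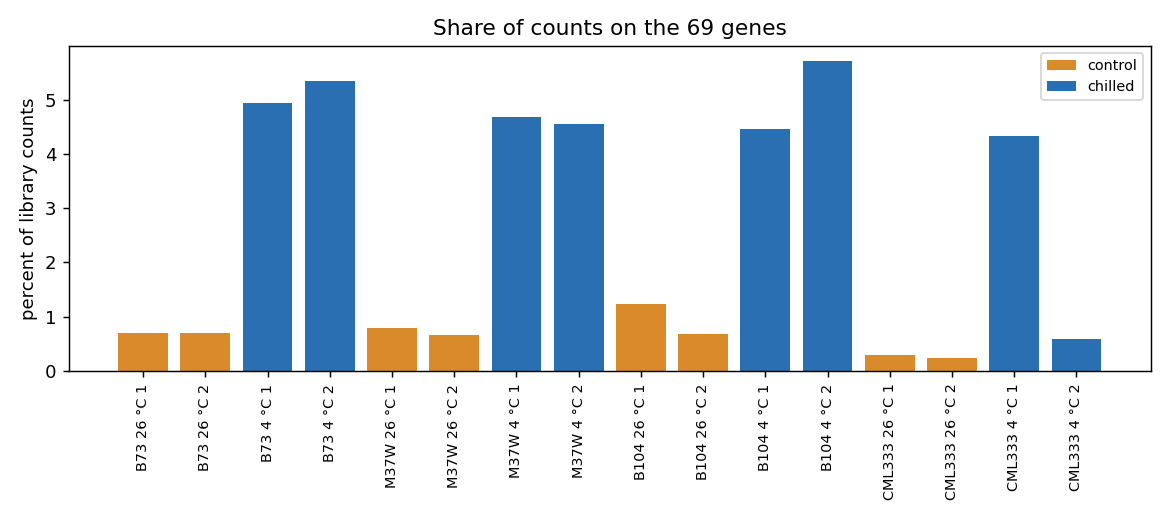
Bars give the percent of each library's counts that fell on the 69 genes (y axis) for the 16 libraries (x axis; line, temperature, replicate), control in orange and chilled in blue. Of the 8 chilled libraries 7 hold 4.33% to 5.71%, while CML333 chilled replicate 2 holds 0.581%, between the control libraries.

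The genes spanned a wide range of levels before and after chilling. The median gene stood at 29.0 and 30.1 CPM in the B73 controls and at 235.9 and 242.1 CPM in the chilled B73 libraries. In M37W the median was 44.0 and 34.9 CPM in the controls and 258.5 and 281.9 CPM in the chilled libraries. Chilled B73 had 12 of the 69 genes at a mean of at least 1000 CPM, 43 from 100 to under 1000 CPM and 14 under 100 CPM. Chilled M37W had 11, 43 and 15. The 5 most abundant genes held 50.3% to 53.8% of the 69 genes' counts in chilled B73 and 43.8% to 47.1% in chilled M37W, so that a handful of messages carried much of the summed level.

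The sizes of the ratios in B73 and M37W chose the genes and are given as a description, with no test. The ratio of mean chilled to mean control CPM ran from 3.69 to 40.2 in B73, with a median of 7.75. In M37W it ran from 3.42 to 28.9, with a median of 5.95. It was larger in B73 for 43 genes and larger in M37W for 26, and for 15 genes the lines' ratios differed by more than 2 times, with B73 the larger in 12 of these. Over the 69 genes the log2 ratios of the lines correlated at r = 0.484 and the chilled levels at Spearman's rho = 0.887. These correlations are across genes of the same libraries and within the range the rule allows.

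Past the 3-fold bound in B73 were 178 of the 10673 expressed IDs (1.67%), and in M37W 184 (1.72%). The 69 genes past it in both are 38.8% of the B73 list and 37.5% of the M37W list. With the threshold ratio defined as the smaller of the lines' ratios of lowest chilled to highest control CPM, 33 of the 69 genes lay from 3 to under 4 and 3 reached 10. The genes just inside the bound had ratios of 3.078 and 3.083, and the expressed IDs just outside had 2.998 and 2.997. A further 106 expressed IDs had a threshold ratio from 2 to under 3. On the control side the lowest control levels just inside were 5.35 and 5.43 CPM, while IDs past the fold in both lines but just outside the minimum had 4.94 and 4.94 CPM. The rule's minimum left out 69 other IDs that were past the fold in both lines with a lowest control level from 1 to under 5 CPM. The fewest counts behind a control value of a chosen gene were 11, for which the exact Poisson 95% interval runs from 2.71 to 9.72 CPM around 5.43 CPM.

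**Figure D2:**
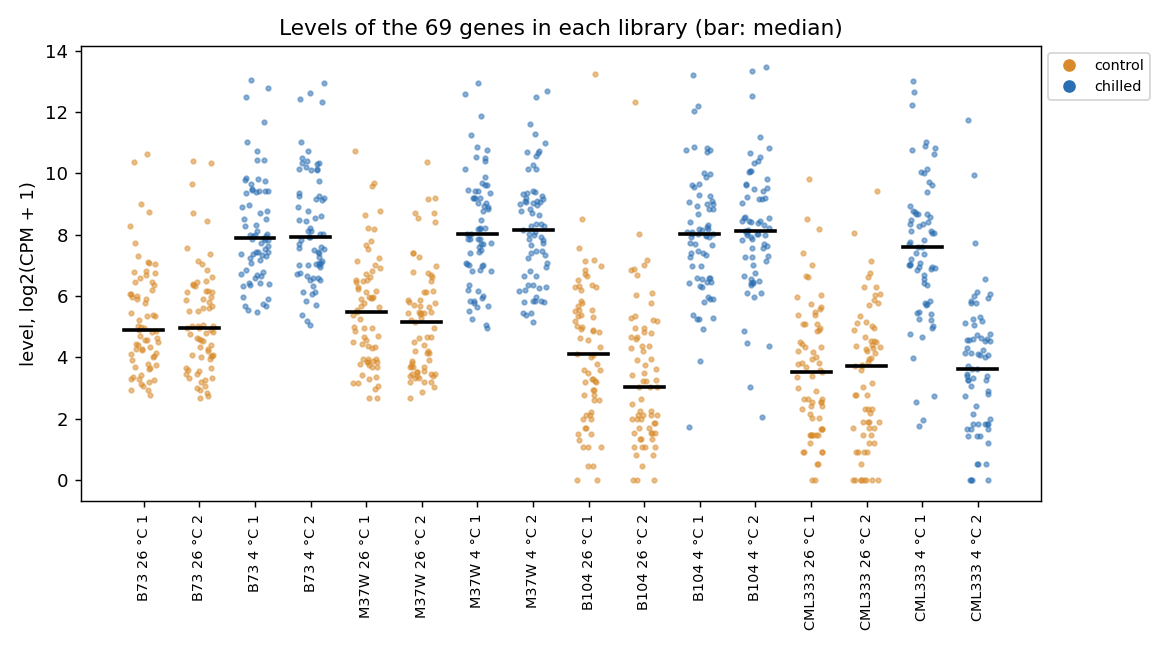
Points give the level of each of the 69 genes as log2(CPM + 1) (y axis) in each library (x axis; line, temperature, replicate), control in orange and chilled in blue, and the black bar is the median. The medians of chilled B104, 259.5 and 277.4 CPM, lie within the range of chilled B73 and M37W, and that of CML333 chilled replicate 1, 191.3 CPM, lies below it. CML333 chilled replicate 2, with a median of 11.2 CPM, lies between the CML333 controls.

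Zm00001d014253 had the largest threshold ratio. It stood at 12.8 and 11.1 CPM in the B73 controls and at 228.0 and 359.5 CPM in the chilled B73 libraries. In M37W it stood at 9.38 and 9.52 CPM in the controls and at 212.4 and 228.7 CPM in the chilled libraries. These levels chose the gene; every chilled library of both lines was at least 17.8 times every control of its line.

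In B104, Zm00001d014253 stood at 1.11 and 0.378 CPM in the controls (3 and 1 counts) and at 154.5 and 251.1 CPM in the chilled libraries. The temperatures did not overlap, and the log2 fold change was 8.06 (SE 1.62, edgeR quasi-likelihood test with Benjamini-Hochberg adjustment, adjusted p 0.00682), with the call lost without B104 control replicate 2 (adjusted p 0.0563) and adjusted p from 3.74e-18 to 0.0563 over 17 alternatives. Here and below, SE is the absolute log2 fold change divided by the square root of the test's F statistic. Of the chilled B104 libraries, replicate 2 lay within the range of chilled B73 and M37W and replicate 1 below it.

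In CML333 the same gene had 0.875 and 0 CPM in the controls (2 and 0 counts), and 14.9 and 0 CPM in the chilled libraries (31 and 0 counts). Chilled replicate 1 alone stood above the controls, far below the chilled level of the other 3 lines, and replicate 2 had no count. The response missed the threshold with both chilled libraries (edgeR adjusted p 0.209) and passed it without chilled replicate 2 (adjusted p 0.00604; from 0.000182 to 0.769 over 16 alternatives).

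Zm00001d013003, next by threshold ratio, stood at 63.5 and 47.8 CPM in the B73 controls and at 807.6 and 1103 CPM in the chilled B73 libraries. The M37W levels were 53.8 and 34.9 CPM in the controls and 790.2 and 542.6 CPM in the chilled libraries. The chilled B104 levels of 784.9 and 1069 CPM were close to those of chilled B73, above 71.7 and 116.1 CPM in the B104 controls. With no overlap between temperatures, the B104 log2 fold change of 3.33 (SE 1.29) missed the threshold in edgeR's fit of the B104 and CML333 libraries (adjusted p 0.0683) and passed it when either chilled CML333 library was left out (adjusted p 0.00128 and 0.00149). Over 17 alternatives its adjusted p ran from 1.5e-05 to 0.255.

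In CML333, Zm00001d013003 stood at 5.25 and 2.68 CPM in the controls and at 116.3 and 2.59 CPM in the chilled libraries. Replicate 2 lay just below both controls. The log2 fold change was 4.17 (SE 1.41, edgeR adjusted p 0.138) with both chilled libraries and 5.14 (SE 0.693, adjusted p 0.0017) without replicate 2. Over 17 alternatives the adjusted p ran from 4.36e-06 to 0.92.

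Most of the 69 genes rose in B104, a line that had no part in their choice. In edgeR's quasi-likelihood test of the 8 B104 and CML333 libraries, 51 of the 69 (73.9%) rose and 0 fell, against 21.7% of all 16332 IDs tested that rose and 18.8% that fell. The median log2 fold change was 4.80 over the 69 genes and -0.05 over all IDs tested. It was also 4.80 with the 2 genes that had no control count set at the bound that 3 counts over the group give. The log2 fold change was above 0 in 67 of the 69 genes (97.1%) and in 48.5% of all IDs. At an unadjusted p under 0.05, 0 of the 69 genes were lower. The share of all IDs under that unadjusted bound is not given here, so that this 0 has no baseline. DESeq2 called 58 higher and 0 lower, against 22.4% and 16.8% of all IDs, and voom called 47 and 0, against 21.9% and 18.6%. All 69 passed the low-count filter, which a gene can pass through its chilled libraries alone. In the 2 B104 controls, 17 and 31 of the 69 genes were under 5 CPM. The count of 51 became 12 (17.4%) without B104 control replicate 2, a share near the 13.1% of all IDs, and 19 (27.5%, against 13.8%) without control replicate 1. It became 30 (43.5%, against 12.8%) without chilled replicate 1 and 25 (36.2%, against 10.8%) without chilled replicate 2. When all 16 libraries were fitted together in edgeR, 58 were called higher and 0 lower, against 27.3% and 24.5% of 17410 IDs. That fit takes part of its spread from the B73 and M37W libraries that chose the genes, and is given as a description.

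On the plain CPM scale, both chilled B104 libraries stood above both B104 controls for 62 of the 69 genes (89.9%), against 38.8% of the expressed IDs. For 58 genes (84.1%) the lowest chilled CPM was at least 3 times the highest control CPM, against 19.5%. The median gene stood at 16.3 and 7.18 CPM in the B104 controls and at 259.5 and 277.4 CPM in the chilled libraries. Since the B104 controls stood apart, the chilled B104 libraries were also set against the 4 controls of B73 and M37W. Both were at least 3 times the highest of those for 46 genes (66.7%), against 1.11% of the expressed IDs, but those controls are values the rule used, so that nothing is read from this contrast.

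Both chilled B104 libraries were at or above the lowest of the 4 chilled B73 and M37W libraries for 39 of the 69 genes (56.5%), a share near the 57.2% of all expressed IDs. The chilled B73 and M37W levels are values the rule used, and nothing is read from this contrast. Chilled B104 had 10 genes at a mean of at least 1000 CPM, 44 from 100 to under 1000 CPM and 15 under 100 CPM. Of the 69 genes, 6 averaged at least 1000 CPM in chilled B73, M37W and B104 alike, and all 6 also reached it in CML333 chilled replicate 1. In CML333 chilled replicate 2 only 1 of the 69 genes reached 1000 CPM. The share of expressed IDs at this level is not given, and chilled B73 and M37W levels entered the rule.

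**Figure D3:**
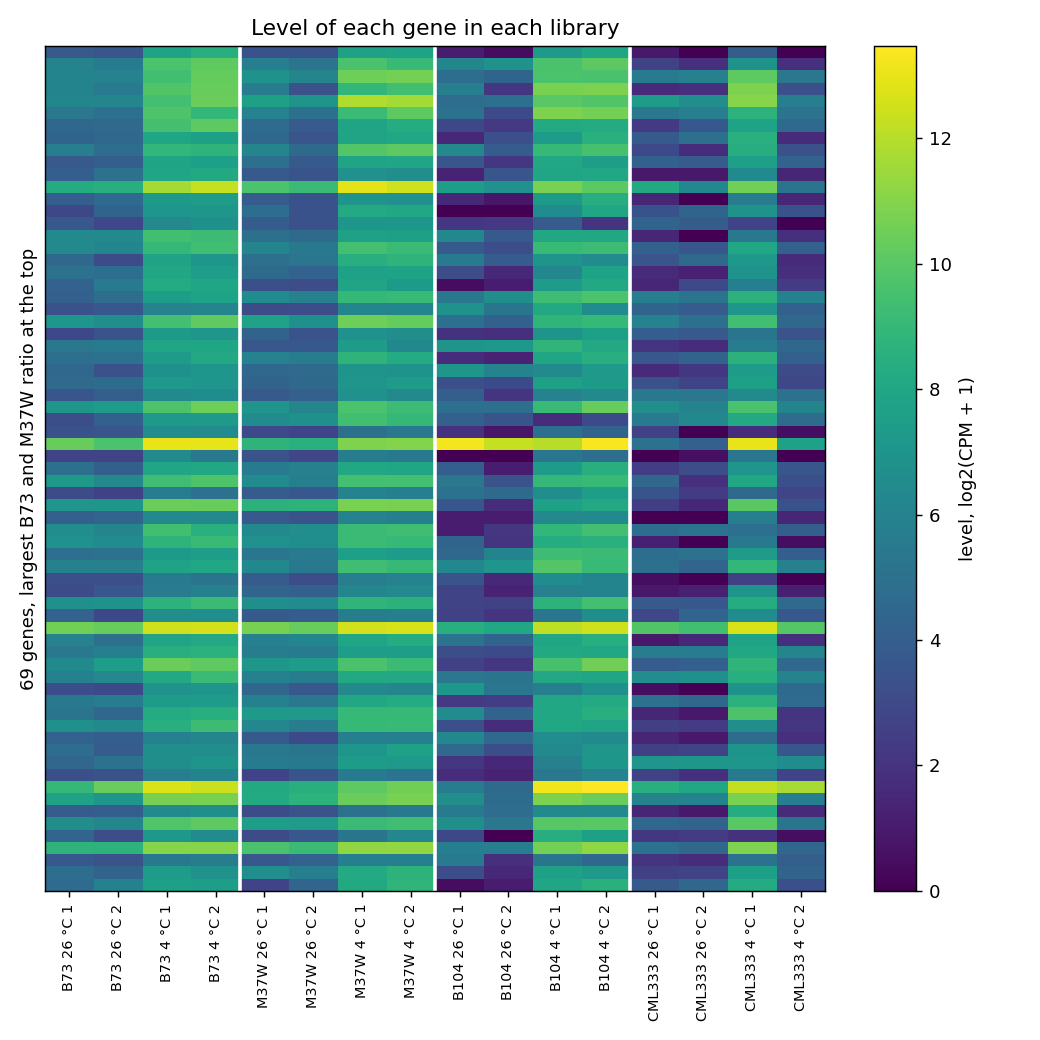
Each row is 1 of the 69 genes, ordered from the largest threshold ratio at the top, each column is a library, and colour gives the level as log2(CPM + 1), from dark (0) to yellow. White lines separate the 4 lines. The chilled columns of B73, M37W and B104 and that of CML333 chilled replicate 1 are brighter than their controls for most genes, and CML333 chilled replicate 2 is about as dark as the CML333 controls.

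The 18 genes that missed the threshold in B104 included 16 with a log2 fold change above 0. In 8 of these 18 both B104 controls were above all 4 controls of B73 and M37W, a comparison made after the values were seen. The share among all IDs that missed the threshold is not given, so that the 8 has no baseline and nothing is read from it. The gene with the highest level in the B104 controls stood there at 9748 and 5080 CPM, against 4157 and 10430 CPM in chilled B104, and at 1319 and 801 CPM in the B73 controls. Its temperatures overlapped in B104 (log2 fold change 0.06, SE 1.29, edgeR adjusted p 0.981). The 69 genes took 1.24% and 0.673% of counts in the B104 controls and 4.46% and 5.71% in the chilled libraries. Without this gene the shares were 0.265% and 0.165% in the controls and 4.04% and 4.66% in the chilled libraries. Both B104 controls were above all 4 B73 and M37W controls for 9 of the 69 genes (13.0%, against 19.1% of the expressed IDs) and below all of them for 43 (62.3%, against 42.3%). The B73 and M37W controls are values the rule used, so that nothing is read from these shares.

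For Zm00001d044426, chosen after its values were seen, the chilled B104 libraries lay below the controls. It stood at 16.3 and 10.2 CPM in the B104 controls and at 2.31 and 7.14 CPM in the chilled libraries, and its log2 fold change of -1.40 missed the threshold (SE 1.06, edgeR adjusted p 0.314). In M37W it stood at 90.9 and 107.0 CPM in the controls and at 680.2 and 496.3 CPM in the chilled libraries. In B73 it went from 8.13 and 17.3 CPM to 157.4 and 152.8 CPM. It was the 1 gene of the 69 whose B104 libraries separated in the downward direction, against 33.4% of the expressed IDs.

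In CML333 the answer depended on which chilled library was read. The median of the 69 genes was 10.5 and 12.1 CPM in the CML333 controls, 191.3 CPM in chilled replicate 1 and 11.2 CPM in chilled replicate 2. The 69 genes took 0.296% and 0.233% of counts in the controls, 4.33% in replicate 1 and 0.581% in replicate 2. Of the 69 genes, 2 and 8 had no count in the controls (2.90% and 11.6%, against 0.309% and 0.600% of the expressed IDs). In replicate 1 there were 0 (against 0.684%) and in replicate 2 there were 4 (5.80%, against 0.693%). Replicate 1 was higher than replicate 2 for all 69 genes, and for 65 of them by more than 2 times, with a median ratio of 16.3 when the 4 genes without a count in replicate 2 are ranked as the largest. Between chilled replicates of B73, M37W and B104 the median ratio of the higher to the lower was 1.22, 1.15 and 1.38.

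CML333 chilled replicate 1 was at least 3 times the higher CML333 control for 61 of the 69 genes (88.4%), against 9.36% of the expressed IDs, and above both controls for 64 (92.8%, against 32.3%). The other 5 (7.25%, against 67.7%) were within or below the range of the controls. For 51 genes (73.9%, against 4.98%) B104 and CML333 chilled replicate 1 were both past 3-fold. Replicate 1 reached the lowest of the 4 chilled B73 and M37W libraries for 33 genes (47.8%), against 73.3% of the expressed IDs. Those chilled levels are values the rule used, so that nothing is read from this contrast. For replicate 2 the 3-fold bound was met by 7 genes (10.1%), against 3.14%. In it 30 genes (43.5%, against 34%) were above both controls and 39 (56.5%, against 66%) were within or below their range. With both chilled libraries required, 7 genes (10.1%) were at least 3-fold higher, against 2.09% of the expressed IDs, and 30 (43.5%) did not overlap with the controls in the upward direction, against 19.3%. Set against the 4 controls of B73 and M37W, replicate 1 was at least 3 times the highest for 41 genes (59.4%, against 1.58%) and replicate 2 for 0 (0.937%). These controls are again values the rule used, and nothing is read from this contrast.

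With both chilled libraries, edgeR's test called 3 of the 69 genes (4.35%) higher in CML333 and 0 lower, against 1.27% and 1.21% of the 16332 IDs tested. The median log2 fold change was 3.75, against 0.02 over all IDs. It was above 0 in 64 of the 69 genes (92.8%), against 50.9% of all IDs. The same libraries gave 46 higher and 0 lower with DESeq2, against 6.92% and 2.74% of all IDs, and 3 and 0 with voom, against 1.84% and 2.22%. When all 16 libraries were fitted in edgeR, which shares the spread of the libraries that chose the genes, 48 were higher and 0 lower, against 10% and 5.36% of 17410 IDs. Without chilled replicate 2, edgeR called 59 of the 69 (85.5%) higher and 0 lower, against 8.38% and 2.25% of 17847 IDs, with a median log2 fold change of 4.54 against -0.02. Without chilled replicate 1 it called 3 higher and 0 lower, against 0.912% and 0.571% of 17868 IDs, with a median of 0.14, and 4 were lower at an unadjusted p under 0.05. With either CML333 control left out, edgeR called 0 of the 69 genes higher and 0% of all IDs. Each of these fits has 7 libraries, and the single library left in a group is taken to vary as much as the rest. In the fit without chilled replicate 1 the median log2 fold change over all IDs was -0.00. For that fit the share of all IDs lower at the unadjusted bound is not given. Its count of lower genes at that bound therefore has no baseline, and nothing is read from it.

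**Figure D4:**
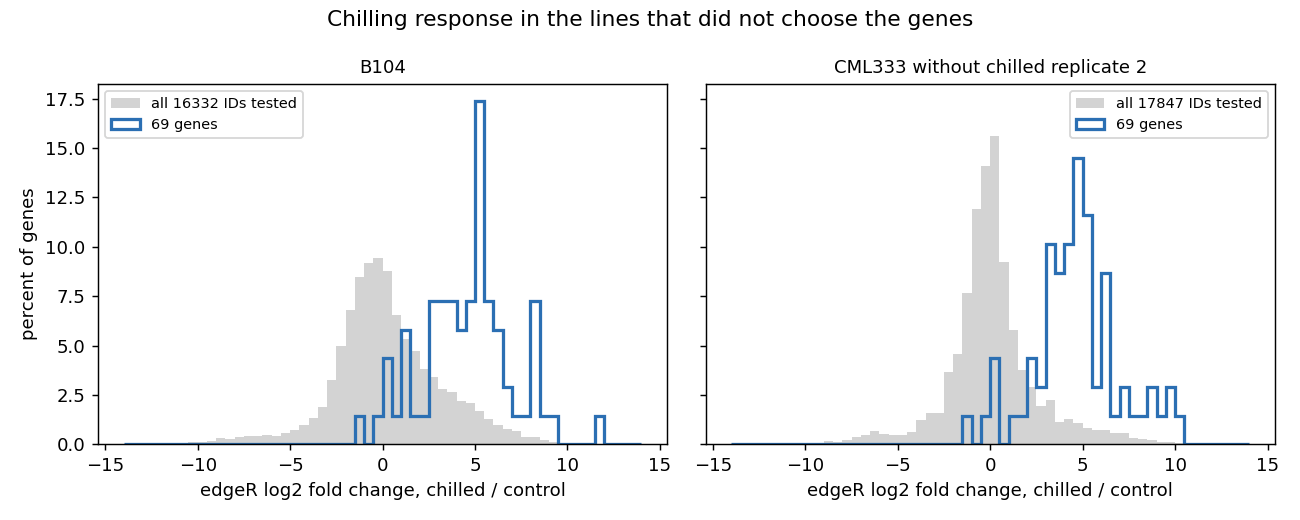
Histograms of edgeR's log2 fold change, chilled over control (x axis), as percent of genes (y axis), for all IDs tested (grey) and the 69 genes (blue outline), in B104 (left) and in CML333 without chilled replicate 2 (right). The 69 genes have medians of 4.80 and 4.54, and all IDs tested have medians of -0.05 and -0.02.

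The 7 genes at least 3-fold higher in CML333 chilled replicate 2 were all higher still in replicate 1, by at least 1.40 times. Among them was the gene with the highest level of the 69 in chilled B104, at 9444 and 11396 CPM there. It stood at 363.4 and 265.6 CPM in the CML333 controls and at 4784 and 3415 CPM in the chilled libraries, so that its chilled replicates lay 1.40 times apart. Its log2 fold change in CML333 was 3.93 (SE 0.70, edgeR adjusted p 0.0304). Its level in chilled M37W was lower, at 1127 and 1498 CPM.

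For Zm00001d029366, chosen after its values were seen, both chilled CML333 libraries lay below the controls. It stood at 19.2 and 14.8 CPM in the CML333 controls and at 5.77 and 0 CPM in the chilled libraries and its log2 fold change of -2.31 missed the threshold (SE 1.20, edgeR adjusted p 0.326). In B104 it stood at 3.33 and 3.78 CPM in the controls and at 13.9 and 3.12 CPM in the chilled libraries, where the temperatures overlapped (adjusted p 0.399). In B73 it went from 11.6 and 6.18 CPM to 80.1 and 106.2 CPM, and in M37W from 14.3 and 9.06 CPM to 132.0 and 133.1 CPM. Chilled libraries of CML333 lay below the controls without overlap for 2 of the 69 genes (2.90%), against 34.3% of the expressed IDs.

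**Figure D5:**
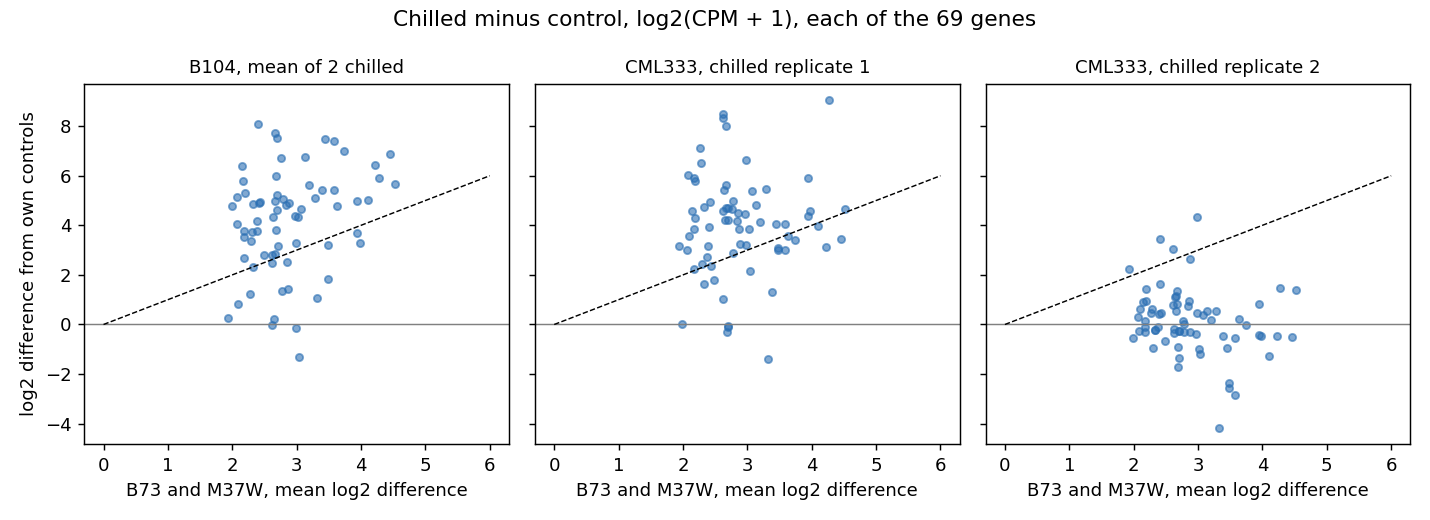
Each point is 1 of the 69 genes. The x axis gives the mean of the B73 and M37W differences in log2(CPM + 1), chilled minus control, and the y axis the same difference against the line's own controls for the mean of chilled B104 (left), CML333 chilled replicate 1 (middle) and CML333 chilled replicate 2 (right). The dashed line marks equal differences. Most points lie above 0 in the left and middle panels and scatter around 0 in the right panel.

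The controls of CML333 were also set against those of the choosing lines, which are values the rule used. Both CML333 controls were below the lowest of the 4 B73 and M37W controls for 48 of the 69 genes (69.6%), against 24.2% of the expressed IDs, and above the highest for 5 (7.25%, against 19.9%). The median difference from the B73 and M37W controls on log2(CPM + 1) was -1.93 over the 69 genes and -0.07 over the expressed IDs. In the B104 controls these medians were -1.70 and -0.48. The rule set a control minimum in B73 and M37W and none in the other lines. These shares and medians are therefore given as a description, and nothing is read from them.

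The responses of B104 and CML333 were compared gene by gene. In edgeR's test of the difference, 7 of the 69 genes (10.1%) had a higher response in B104 and 2 (2.90%) a lower one, against 9.4% and 6.71% of all 16332 IDs. Without CML333 chilled replicate 2 these counts became 10 and 9 (14.5% and 13%), against 8.56% and 5.86% of 17847 IDs. Without chilled replicate 1 they became 43 and 1 (62.3% and 1.45%), against 11.5% and 6.1% of 17868 IDs. In the fit without CML333 chilled replicate 2, 53 of the 69 genes rose in both lines, 8 rose in B104 and not CML333, 6 in CML333 and not B104, and 2 in neither, while 5.4% of all IDs tested rose in both. The shares of all IDs called in 1 line alone or in neither are not given, so that the 8, 6 and 2 have no baseline. A call in 1 line alone is not a difference between the lines.

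Among the 69 IDs there were 4 pairs whose numbers differ by 5 or less. Whether these are neighbours or copies of each other is not given in the files, and if the sequences are near-identical their reads could have been divided between them in counting. The authors' deposited tables of normalized signal list all 69 genes for B73, M37W and B104 and 66 of them for CML333.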

How the data were processed

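RNA from maize leaves was made into 3′ end libraries (QuantSeq forward kit, read on a NextSeq500), per the labels' protocols. The authors deposited raw counts per gene ID for each of the 16 libraries. STAR and edgeR were used, per the submitters' processing notes, with versions, genome build, annotation and handling of reads with several alignments not given in the sources used here. A normalized signal table per line was deposited too, and 100% of its values equalled the count over 1 constant per library (relative tolerance 1e-06), so that no test rests on it.

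Groups came from line and temperature in the titles. The genes and gene lists were chosen with earlier results of these data known. No list could be matched to the IDs (0 of 44146 had a name), so that none was tested. By the naming rule, the 2 IDs with the largest threshold ratio are named, and 2 more were chosen after their values were seen.

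Counts of the 8 B104 and CML333 libraries, which the rule did not use, were fitted together in edgeR 4.0.16 (R 4.3.3): filterByExpr, trimmed mean of M-values (TMM, factors 0.873 to 1.18), estimateDisp, robust glmQLFit and glmQLFTest, a mean per group, no covariate. Tests were two-sided, with Benjamini-Hochberg adjusted p under 0.05 over all IDs tested. The SE given with a log2 fold change was worked back from the F statistic and is not a standard error reported by edgeR. The steps were also run on simulated counts with the same spread in every group, unlike the chilled CML333 pair here. That run does not bear on how the fits handle this pair. Totals ran from 1780344 to 2705564 counts, which limits precision near 5 CPM. Other tools were limma 3.58.1 (voom) and DESeq2 1.42.0, beside other scaling, filters, blocks, bounds and libraries left out. Fits of nuclear IDs only and the B73 and M37W controls as reference were added after the data were seen.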

Additional observations from a re-analysis of the deposited data

Results flagged for a closer look

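The responses of B104 and CML333 to chilling differed by edgeR's test of the difference at 7 of the 69 genes with a higher response in B104 and 2 with a higher response in CML333, and both counts change with the libraries kept. These are 10.1% and 2.9% of the 69 genes, against 9.4% and 6.71% of all 16332 IDs tested. The first share is near the background. The second is lower but rests on 2 genes and changes with the libraries kept, so that nothing is read from it.

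Zm00001d044426 was higher in every chilled library of B73 and M37W than in their controls and lower in both chilled B104 libraries than in both controls, by -1.31 on the scale of log2(mean CPM + 1). Zm00001d029366 was likewise higher in every chilled library of B73 and M37W and lower in both chilled CML333 libraries, by -2.21 on the same scale. For these genes the difference from B73 and M37W was not tested.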

How the results depend on the processing

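Number of chosen genes: the rule gave 69 genes, 175 at 2-fold, 26 at 5-fold, 138 with a minimum of 1 CPM and 44 with 10 CPM, and 76 to 88 with 1 of the 8 B73 and M37W libraries left out. B104: the 51 genes that rose became 21 at an adjusted p under 0.01, 118 of the 2-fold, 18 of the 5-fold and 95 of the 1 CPM genes, and 12 to 61 with 1 of the 8 libraries left out. The 0 that fell became 3 of the 2-fold and 1 of the 1 CPM genes. CML333: the 3 genes that rose became 48 with all 16 libraries, 46 with DESeq2, 58 without a low-count filter, 0 with a block by the description's number, 0 at an adjusted p under 0.01, 6 of the 2-fold, 1 of the 5-fold and 6 of the 1 CPM genes, and 0 to 59 with 1 library left out. The 0 that fell became 1 of the 2-fold genes. The share of all IDs called is not given without the low-count filter, with a block or at an adjusted p under 0.01. It is also not given for either line with a library of the other line left out. Those counts have no baseline here. The 7 genes at least 3-fold higher in both chilled CML333 libraries became 7 to 61 with 1 library left out, with 11 without control replicate 1, and 0 against the B73 and M37W controls.

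Difference of the responses: the 7 genes with the higher response in B104 became 14 with all 16 libraries, 11 with DESeq2, 17 without the filter, 2 with the description block, 2 at an adjusted p under 0.01, 2 of the 5-fold and 4 of the 10 CPM genes, and 2 to 43 with 1 library left out. The 2 with the lower response became 6 with all 16 libraries, 6 with DESeq2, 1 with voom, 8 without the filter, 1 with the title's replicate block, 0 with the description block, 0 at an adjusted p under 0.01, 5 of the 2-fold, 0 of the 5-fold, 6 of the 1 CPM and 1 of the 10 CPM genes, and 0 to 9 with 1 library left out. The B104 minus CML333 difference of Zm00001d013003 was -0.85 and ran from -1.79 to 3.94 with 1 library left out, turning to 3.94 without CML333 chilled replicate 1. The cause of these changes was not tested. The share of all IDs is given only for the fit behind the 7 and 2 genes and those without 1 chilled CML333 library. Counts from the other fits and from the bound of 0.01 have no baseline here.

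With 2 libraries a group and no shared source in the labels, the numbers in the titles were not taken to pair the samples. Deviations of same-numbered libraries correlated at 0.0402 between B104 control and chilled and at 0.105 between CML333 control and chilled, and from -0.0622 to 0.269 over all 6 pairs of groups. With a replicate block by title number, 52 genes rose in B104 and 3 in CML333. With a block by the description's number these counts were 48 and 0. The share of all IDs that rose is not given for either block, so that these counts have no baseline. Of 159 alternative counts, 100 stayed within 1.5 times and 59 moved. A count of 0 that remained 0 was scored as unchanged, which holds for most counts of genes that fell in B104 or CML333. The 100 are therefore no measure of stability. Depth limits genes near 5 CPM.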
